A study of Mus musculus with 8 samples.

Results

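*Smad4* was switched back on in mouse pancreatic ductal adenocarcinoma (PDAC) cells. The TGFβ type I receptor was then blocked by a kinase inhibitor, SB505124, and the response was read across all expressed genes. The comparison was defined by the sample labels and holds 4 of the 8 libraries of the series, 2 Smad4 off and 2 Smad4 on. Of the 53465 genes in the count table, 14301 had enough counts to be tested. B73 and B87, the 2 lines used, were each derived from 1 primary tumor of a male mouse on a mixed C57BL/6J and 129 background. All of them carried Ptf1a-Cre, which acts in the embryonic pancreas, a *Rosa26* allele for the reverse tetracycline transactivator rtTA3 with the red reporter mKate2, and a doxycycline (Dox) inducible, GFP-linked short hairpin RNA (shRNA) against *Smad4* in the *Col1a1* locus. The hairpin was 1 of 2, and which of them a line carried is not given in the sources used here. No library held a count of the cell cycle inhibitor genes *Cdkn2a* and *Cdkn2b*, a locus that most lines of this kind had lost per the study. Smad4-off cells were kept on Dox and Smad4-on cells had been without Dox for 5 days when they were plated. At 24 h after plating, both received 2.5 µM SB505124 for a further 24 h. Smad4-on cells had thus been without Dox before the block began, and changes made in that time cannot be told apart from later ones. The other 4 libraries had the same lines and Dox states with 100 pM TGFβ1 for 24 h in place of the inhibitor. They entered the same fit, which estimated the spread over all 8 libraries. They also served for the tests of difference between the treatments.

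SMAD4 is the shared partner of the receptor-activated SMAD proteins. The TGFβ and activin receptors act through SMAD2 and SMAD3, the bone morphogenetic protein (BMP) receptors act through SMAD1, SMAD5 and SMAD9, and either kind of SMAD joins SMAD4 to control transcription. SB505124 inhibits the type I receptors for TGFβ, activin and nodal and spares those for BMPs. The comparison therefore reads what differed with *Smad4* on after 24 h of blocked TGFβ input. *SMAD4* is often lost in human PDAC.

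The 4 libraries held 18389235 to 23440550 counts, and a count of 3 in a library corresponded to 0.125 to 0.162 counts per 1000000 (CPM), the lowest level taken as measurable. *Smad4* mRNA, the target of the hairpin, was at 33.7 and 34.9 CPM in Smad4-off cells and 97.4 and 114 CPM in Smad4-on cells (in each such pair B73 comes first and B87 second). Smad4-off cells thus held 34.6% (B73) and 30.7% (B87) of the Smad4-on level, and the rise passed the test (log2 fold change 1.62 ± 0.0919, adjusted p 0.00234; edgeR, here and below). Epithelial markers were present at summed levels of 1740 to 6253 CPM, with keratin genes in the lead and *Epcam* at no more than 2.11 CPM. Acinar and endocrine markers summed to at most 1.41 and 0.15 CPM, immune markers to 6.39 CPM and endothelial markers to 5.36 CPM. Fibroblast markers ranged from 5.84 to 161 CPM. Most of the highest value was *Col1a1* in Smad4-on B87 cells, while *Dcn*, *Lum* and *Thy1* had 5, 0 and 2 counts over all 8 libraries. Mitochondrial genes took 1.49% to 2.07% of the counts. Dox withdrawal and *Smad4* restoration cannot be told apart in these 4 libraries, since no line with a control hairpin was among them. There was 1 culture per line, Dox state and treatment, so the p-values measure the spread between libraries alone. That spread was estimated over all 8 libraries, those with TGFβ1 included. In bulk RNA, fewer cells of a kind and less RNA per cell cannot be told apart.

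Restoring *Smad4* under the inhibitor raised 91 genes and lowered 65 by more than 2-fold at an adjusted p under 0.05. These are 0.636% and 0.455% of the genes tested, and together 1.09%. The genes called higher included *Muc5ac*, *Id1*, *Id3*, *Acta2* and *Fbln2*, and those called lower included *Serpinb9g*, *Gli2*, *Wnt4*, *Col4a3* and *Tnip3*. The median log2 fold change was 0.00 over all genes tested, 2.05 over the genes called higher and -2.45 over those called lower, and 90% of all genes lay between -0.65 and 0.72. Of the 156 called genes, 155 had the same sign in B73 as in B87 and 133 moved more than 2-fold in each. Across all genes, 312 (2.18%) moved more than 2-fold the same way in B73 and in B87, 177 up and 135 down, and 36 did so in opposite directions. Over all tested genes 58.6% had the same sign in both lines. The 156 were called on these same libraries by a fit that favors changes shared by the lines. Their agreement between lines and between the fits below is therefore a description and not a replication. These calls use the line as a term, because libraries of a line deviated together (median r = 0.758 across genes). With the line left out of the model (no replicate block), 1 gene was called higher, *Smad4* (adjusted p 0.0379), and 1 lower, *Impdh1* (0.0418). Of the 156 genes, 25 remained called with each of the 8 libraries left out in turn, and the other 131 lost the call in at least 1 of these fits. Of the SB505124 libraries, leaving out the Smad4-off or the Smad4-on one of B73 ended the call of 108 and 114 genes, and leaving out either one of B87 ended 81, although all 156 kept their direction in every fit. The 25 were *Smad4*, *Acta2*, *Slc9a2*, *2610528A11Rik*, *Prl2c2*, *Ptgs1*, *Pik3r5*, *Fbln2*, *Id3*, *Suox* and *Gsta4* among the rises, and *Etl4*, *Impdh1*, *Twf2*, *Sprr1a*, *Gstm5*, *Pax9*, *Itgb2*, *Megf10*, *Mpped2*, *Adgrg1*, *Cxxc4*, *Oprd1*, *Col4a3* and *Serpinb9g* among the falls. Where the groups of a gene are said below not to overlap, this describes 2 against 2 libraries of genes already called on these values. The share of all tested genes that separate in this way was not counted, so it adds no evidence for a change.

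**Figure D1:**
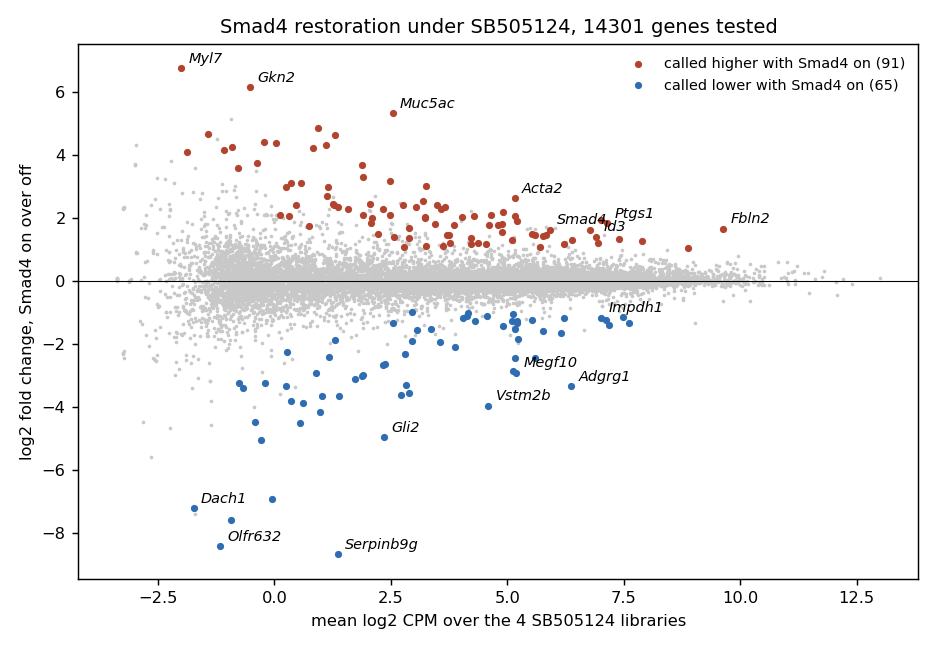
Log2 fold change of Smad4-on over Smad4-off cells under SB505124 (y axis) against the mean log2 CPM of the 4 libraries (x axis), with 1 point per gene, grey for the 14301 genes tested, red for the 91 called higher and blue for the 65 called lower. The largest fitted changes sit among genes of low level, such as *Myl7*, *Gkn2* and *Olfr632*, and called genes of high level, such as *Fbln2* and *Ptgs1*, changed less.

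**Figure D2:**
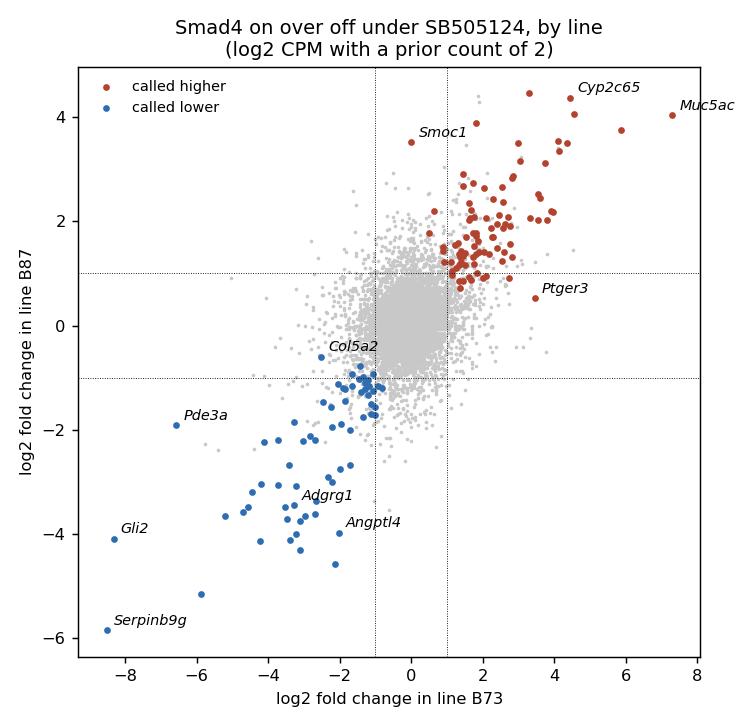
Log2 fold change of each gene in line B87 (y axis) against line B73 (x axis), computed on log2 CPM (prior count 2), with called genes in red and blue and dotted lines at 2-fold. The called genes lie in the upper right and lower left, except that *Smoc1*, with 0 counts in both B73 libraries, sits at 0 on the x axis.

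Known targets of BMP signaling rose. Of 9 tested genes on a list of BMP and SMAD1/5 targets, 4 were called higher and 0 lower, and the median log2 fold change was 1.17 against 0.00 for all genes. For this list and those below, the shares over all tested genes were 0.636% called higher and 0.455% called lower. In either direction, 12.6% had an unadjusted p under 0.05 and 58.6% the same sign in both lines. *Id1* and *Id3* encode inhibitors of basic helix-loop-helix factors, and both are standard readouts of BMP receptor activity. *Id1* was at 56.9 and 50.6 CPM in Smad4-off cells and 149 and 117 CPM in Smad4-on cells. *Id3* was at 61.2 and 90.1 CPM in Smad4-off cells and 143 and 263 CPM in Smad4-on cells. Both Smad4-on libraries stood above both Smad4-off libraries for each gene, with a log2 fold change 1.30 ± 0.18, adjusted p 0.0213 for *Id1*, and a log2 fold change 1.39 ± 0.10, adjusted p 0.00341 for *Id3*. *Smad6*, an inhibitory SMAD that curbs BMP receptors, was at 13.7 and 17.6 CPM in Smad4-off cells and 29.8 and 41 CPM in Smad4-on cells (log2 fold change 1.17 ± 0.13, adjusted p 0.0122). *Smad9*, which encodes a receptor-activated SMAD of the BMP branch, was at 1.85 and 0.659 CPM in Smad4-off cells and 15.2 and 8.44 CPM in Smad4-on cells. Its fitted change was the largest of the list (log2 fold change 3.27 ± 0.47, adjusted p 0.0245), and the groups of *Smad6* and *Smad9* did not overlap either. *Id3* stayed called with any library left out, whereas *Id1*, *Smad6* and *Smad9* lost the call whichever of the 4 SB505124 libraries was missing, with adjusted p-values of up to 0.177, 0.0859 and 0.215. The members that did not pass were *Atoh8* (1.65, adjusted p 0.153), *Msx1* (1.12, 0.309), *Smad7* (0.59, 0.074), *Id2* (0.40, 0.595) and *Bambi* (0.85, 0.531), and 8 of the 9 had a positive sign in both lines.

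The promoters of the BMP targets are shown because these genes rose together and because SMAD proteins bind short DNA boxes. RefSeq sequences (GRCm38.p6) were at hand for *Id3*, *Smad6* and *Smad9*. Each line runs from 250 bases before to 10 after the start annotated by RefSeq, 5′ to 3′ on the strand of the gene. Capitals mark CAGAC (a Smad-binding element), GGCGCC (a GC-rich Smad box) or GTCTAGAC (the palindromic element) on either strand. None of these 3 strings contains another. The windows are chr4:136143572-136143831 on the plus strand for *Id3*, chr9:64022050-64022309 on the minus strand for *Smad6* and chr3:54755332-54755591 on the plus strand for *Smad9*. In the gene annotation of the counts, *Id3* starts at 136143497, so its window lies inside the gene body as counted.
*Id3*: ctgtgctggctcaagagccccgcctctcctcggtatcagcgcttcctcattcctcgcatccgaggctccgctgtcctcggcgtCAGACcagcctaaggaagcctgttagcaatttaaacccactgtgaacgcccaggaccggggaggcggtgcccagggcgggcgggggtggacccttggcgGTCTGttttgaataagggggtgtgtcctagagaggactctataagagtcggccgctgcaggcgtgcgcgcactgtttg
*Smad6*: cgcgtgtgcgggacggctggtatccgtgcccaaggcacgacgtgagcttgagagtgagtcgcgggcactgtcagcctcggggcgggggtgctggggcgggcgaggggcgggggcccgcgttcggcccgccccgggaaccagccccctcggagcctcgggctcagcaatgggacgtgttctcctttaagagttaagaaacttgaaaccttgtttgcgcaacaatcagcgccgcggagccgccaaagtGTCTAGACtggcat
*Smad9*: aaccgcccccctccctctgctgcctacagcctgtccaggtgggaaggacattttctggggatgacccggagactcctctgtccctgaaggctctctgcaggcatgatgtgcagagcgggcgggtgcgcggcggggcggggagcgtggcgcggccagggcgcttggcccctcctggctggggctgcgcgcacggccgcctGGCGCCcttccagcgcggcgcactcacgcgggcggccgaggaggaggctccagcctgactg
The stretch of *Id3* held CAGAC 2 times, that of *Smad6* held the palindrome GTCTAGAC across its start, and that of *Smad9* held GGCGCC 1 time. In the full 300-base promoters of RefSeq, GTCTAGAC occurred in 70 of 32851 (0.213%), CAGAC in 49.6% and GGCGCC in 11.9%, with both strands searched. Among tested genes with an entry, CAGAC was found for 52.5%, against 44 of 68 genes called higher (64.7%) and 28 of 46 called lower (60.9%). GGCGCC was found for 24.4% of tested genes, 8 of the 68 (11.8%) and 13 of the 46 (28.3%). GTCTAGAC was found for 30 of 10260 tested genes (0.292%), 1 of the 68, *Smad6*, and 0 of the 46. A match is a description of letters and not a binding site.

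None of 17 tested BMP ligands, receptors and antagonists was called, with a median of 0.13. A positive sign in both lines was found for 11, and 6 had a positive change at an unadjusted p under 0.05, among them the antagonists *Bmper* (0.73, adjusted p 0.0508), *Nog* (1.83, 0.107) and *Chrd* (1.04, 0.142). Over all tested genes 12.6% had such a p-value, in either direction. None of 14 tested genes for TGFβ and activin ligands and receptors was called (median -0.10), and none of 10 TGFβ feedback genes (median 0.09). *Smad5*, which carries the BMP signal, had a change of -0.15 (adjusted p 0.611). On the list of 9 fibrogenic genes taken from the study, 1 was called higher and 0 lower (median 0.38); the study chose that list on these samples, so it is not independent evidence of a direction.

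**Figure D3:**
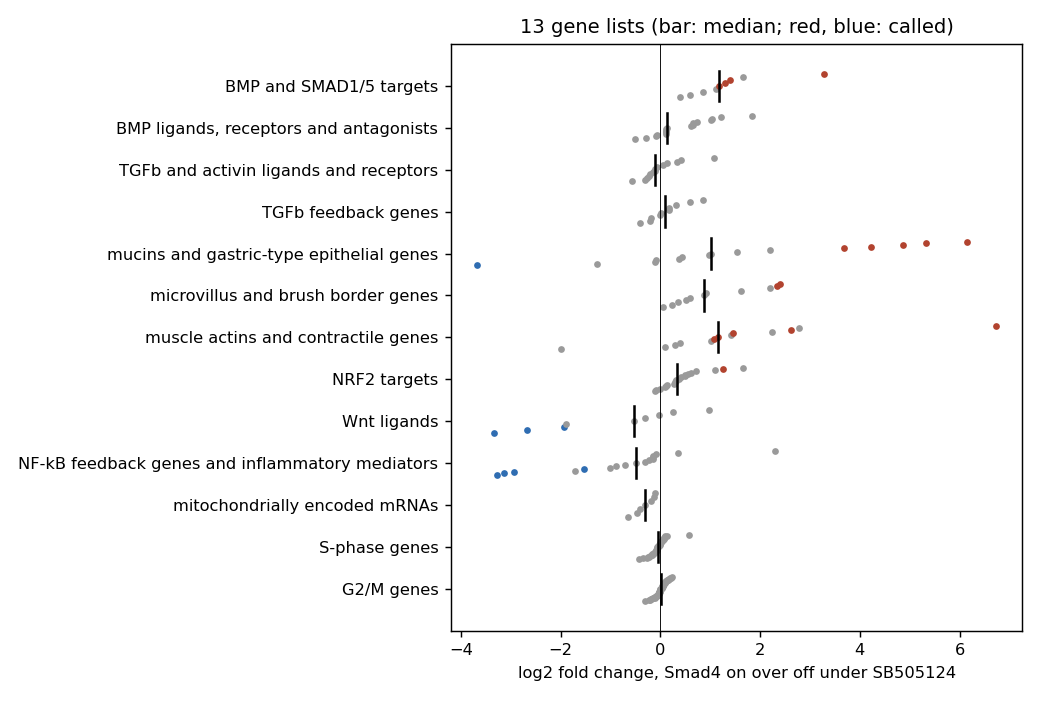
Log2 fold change under SB505124 (x axis) of the tested members of 13 gene lists (y axis), with 1 point per gene, red or blue where the gene was called, and a bar at the list's median. BMP targets, gastric-type genes, contractile genes and brush border genes have medians between 0.87 and 1.17, Wnt ligands and NF-κB genes lie near -0.5, and the cell-cycle lists sit at 0.

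Genes of the gastric epithelium were among the largest rises. Of 15 tested mucin and gastric-type genes, 5 were called higher and 1 lower, with a median of 1.01. *Muc5ac* (chromosome 7, 141788972 to 141819231), the gel-forming mucin of gastric surface cells, was at 0.25 and 1.85 CPM in Smad4-off cells and 53.9 and 31.7 CPM in Smad4-on cells. It was 216-fold higher in B73 and 17.2-fold higher in B87 (log2 fold change 5.32 ± 0.69, adjusted p 0.0184; 0.0874 without the Smad4-on B73 library). *Gkn2*, a gastrokine secreted by the stomach, went from 0 to 101 counts in B73 cells and from 2 to 57 in B87 cells, which made it at least 36.4-fold higher in B73 and 27-fold higher (95% counting interval 7.14 to 228) in B87. *Ctse*, the gastric aspartic protease cathepsin E, was at 0.599 and 0.22 CPM in Smad4-off cells and 11.9 and 3.58 CPM in Smad4-on cells (log2 fold change 4.22 ± 0.69, adjusted p 0.0388). *Anxa10*, an annexin known from gastric mucosa, was at 2.99 and 0.308 CPM in Smad4-off cells and 40.9 and 3.41 CPM in Smad4-on cells (log2 fold change 3.67 ± 0.30, adjusted p 0.00375). *Ceacam18*, of the carcinoembryonic antigen family, went from 18 to 430 counts in B73 cells and from 2 to 71 in B87 cells (adjusted p 0.024), and DESeq2 with the line did not call it. In all 5 genes the Smad4-on libraries exceeded the Smad4-off libraries, although B73 reached higher levels than B87. *Muc13*, a transmembrane mucin, went the other way, from 24 to 2.22 CPM for B73 and from 3.73 to 0.125 CPM for B87 (log2 fold change -3.68 ± 0.46, adjusted p 0.0159). *Tff1*, a trefoil peptide secreted with *Muc5ac*, had a change of 2.20 that did not pass (adjusted p 0.0598), and the transmembrane mucin *Muc1* one of -1.27 (0.173).

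Single genes known from intestinal and absorptive epithelium were called higher, and apart from the brush border list those named here were picked after their values were seen. The brush border list was put together after the values had been seen: 2 of its 11 tested genes were called higher and 0 lower, with a median of 0.87. *Vil1*, which encodes the actin-bundling protein villin of microvilli, rose from 34.2 to 167 CPM for B73 and from 0.615 to 3.74 CPM for B87 (log2 fold change 2.39 ± 0.26, adjusted p 0.00956). *Cdhr2*, a protocadherin that links microvilli, rose from 6.24 to 33.5 CPM for B73 and from 0.176 to 0.666 CPM for B87 (log2 fold change 2.33 ± 0.26, adjusted p 0.0118). For both, the Smad4-off B73 cells held more mRNA than the Smad4-on B87 cells, so the groups overlap while each line rose, and DESeq2 with the line did not call *Vil1*. *Cdhr5* (1.62, adjusted p 0.11) and *Myo1a* (2.20, 0.101), which act in the same structure, did not pass. *Gpa33*, an intestinal surface antigen, was at 1.05 and 0.176 CPM in Smad4-off cells and 23.2 and 2.95 CPM in Smad4-on cells (log2 fold change 4.31 ± 0.33, adjusted p 0.00341). *Tmigd1*, an epithelial adhesion protein, rose from 9.88 to 68 CPM for B73 and from 0.923 to 2.91 CPM for B87 (log2 fold change 2.41 ± 0.33, adjusted p 0.02). *Alpi*, intestinal alkaline phosphatase, went from 7 to 81 counts in B73 cells and from 9 to 47 in B87 cells (adjusted p 0.0388). *Isx*, an intestinal homeobox factor, rose from 12.9 to 33.4 CPM for B73 and from 0.966 to 2.54 CPM for B87 (log2 fold change 1.38 ± 0.22, adjusted p 0.0474). *Slc9a2*, a sodium-proton exchanger, was at 9.88 and 3.03 CPM in Smad4-off cells and 41.1 and 19.3 CPM in Smad4-on cells (log2 fold change 2.35 ± 0.18, adjusted p 0.00341), with no overlap. *Atp8b1*, a phospholipid flippase of apical membranes, was at 6.69 and 1.93 CPM in Smad4-off cells and 36.7 and 8.69 CPM in Smad4-on cells (log2 fold change 2.32 ± 0.28, adjusted p 0.0136).

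Enzyme genes of foreign-compound metabolism were also among the rises. Of 20 tested cytochrome P450 genes, 2 were called higher and 0 lower (median -0.01). *Cyp2c65* rose from 1.95 to 44.3 CPM for B73 and from 0.0439 to 2.79 CPM for B87, which was 22.8-fold higher in B73 and 63.4-fold higher (95% counting interval 11 to 2543) in B87, where the Smad4-off library had 1 count (adjusted p 0.00316), and 11.4% of its 75-base stretches also occur in *Cyp2c66* and could be counted there. *Cyp4f14* rose from 3.64 to 22.1 CPM for B73 and from 0.132 to 1.08 CPM for B87 (log2 fold change 2.67 ± 0.28, adjusted p 0.0139). *Ugt2b34*, a glucuronosyltransferase, rose from 38.7 to 128 CPM for B73 and from 7.82 to 19.7 CPM for B87 (log2 fold change 1.55 ± 0.23, adjusted p 0.0272). *Gsta4*, a glutathione transferase that clears lipid peroxidation products, rose from 235 to 594 CPM for B73 and from 102 to 229 CPM for B87 (log2 fold change 1.25 ± 0.10, adjusted p 0.00358). It was the 1 called gene among 20 NRF2 targets, a list with a median of 0.34. Of that list, 16 genes had a positive sign in both lines. An unadjusted p under 0.05 was found for 10, against 12.6% of all tested genes. The genes next to it by p-value were *Gclc* (0.49, adjusted p 0.0707), *Abcc3* (1.67, 0.0733) and *Hmox1* (0.72, 0.0786). In the opposite direction, *Gstm5*, a glutathione transferase of another class, fell from 83.4 to 12.9 CPM for B73 and from 83 to 18 CPM for B87 (log2 fold change -2.45 ± 0.15, adjusted p 0.00287). An antisense gene overlaps 13.9% of the exon bases of *Gstm5*, and whether counting used the strand is not given in the sources used here.

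Some muscle-type contractile genes were called higher. On a list of 13 tested muscle actin and contractile genes, put together after the values had been seen, 5 were called higher and 0 lower, with a median of 1.15. *Acta2*, smooth muscle α-actin, was at 10.2 and 20.6 CPM in Smad4-off cells and 59.3 and 129.6 CPM in Smad4-on cells (log2 fold change 2.62 ± 0.26, adjusted p 0.00714). *Palld*, the actin-bundling protein palladin, was at 27.7 and 46.1 CPM in Smad4-off cells and 52.4 and 107 CPM in Smad4-on cells (log2 fold change 1.07 ± 0.10, adjusted p 0.00569). *Tnnt2*, cardiac troponin T, was at 17.9 and 45.3 CPM in Smad4-off cells and 76.6 and 87.1 CPM in Smad4-on cells (log2 fold change 1.46 ± 0.26, adjusted p 0.0492). In these 3 genes the Smad4 states did not overlap. *Fhl1*, a LIM-domain protein of muscle, rose from 2.45 to 7.62 CPM for B73 and from 56.6 to 107 CPM for B87 (log2 fold change 1.15 ± 0.17, adjusted p 0.0272), and its groups overlap because B87 held far more of it. *Myl7*, an atrial myosin light chain, went from 0 to 19 counts in B73 cells and from 0 to 7 in B87 cells and was at least 6.86-fold higher in B73 and at least 2.21-fold higher in B87. *Mylk*, myosin light chain kinase, had a negative change that did not pass (-1.99, adjusted p 0.106).

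Matrix genes were called in both directions, and those called higher are given here. *Fbln2* (chromosome 6, 91212455 to 91272540), which encodes the secreted glycoprotein fibulin-2, had the highest mean CPM of the called genes. It was at 288 and 704 CPM in Smad4-off cells and 979 and 2031 CPM in Smad4-on cells (log2 fold change 1.64 ± 0.11, adjusted p 0.00316). *Lamb3*, an epithelial laminin chain, rose from 8.89 to 58.4 CPM for B73 and from 1.67 to 7.36 CPM for B87 (log2 fold change 2.52 ± 0.20, adjusted p 0.00358). *Ecm1*, a secreted matrix glycoprotein, was at 66.4 and 101 CPM in Smad4-off cells and 123 and 288 CPM in Smad4-on cells (log2 fold change 1.19 ± 0.18, adjusted p 0.0283). *Col1a1*, the type I collagen chain, rose from 0.349 to 0.594 CPM for B73 and from 25.9 to 119 CPM for B87 (log2 fold change 2.08 ± 0.25, adjusted p 0.0136), so that the change rested on B87; the hairpin cassette lies in the *Col1a1* locus, and without the Smad4-on B87 library the adjusted p was 0.495. *Lama4* behaved likewise, with counts going from 1 to 2 counts in B73 cells and from 197 to 714 in B87 cells (adjusted p 0.0206; 0.839 without the Smad4-on B87 library). Of the fibroblast markers, *Pdgfrb* went from 1.25 to 0.27 CPM for B73 and from 12.8 to 27.2 CPM for B87 and *Pdgfra* from 0.898 to 0.648 CPM for B73 and from 5.01 to 6.41 CPM for B87, and neither was called. Their part in the rise of *Col1a1* was not tested. The metalloproteases *Adam12* (1.18, adjusted p 0.0296), *Adam19* (3.10, 0.0398) and *Adamts15* (3.00, 0.0414) were also called higher. Antisense genes overlap 10.1% of the exon bases of *Adam19*. *Pkp1*, the desmosomal protein plakophilin-1, was the 1 called gene among 18 tested junction genes, at 4.09 and 6.85 CPM in Smad4-off cells and 25.8 and 26.5 CPM in Smad4-on cells (log2 fold change 2.26 ± 0.23, adjusted p 0.00737).

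**Figure D4:**
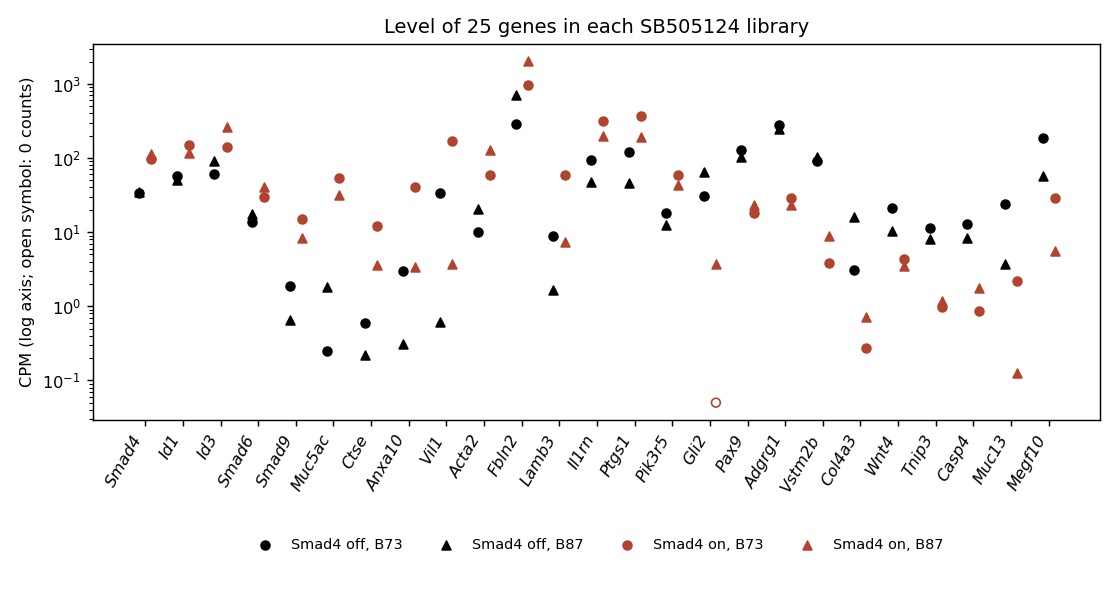
CPM of 25 genes (x axis) in each of the 4 libraries on a log axis (y axis), with black for Smad4 off, red for Smad4 on, circles for B73 and triangles for B87; the open circle drawn at the bottom for *Gli2* stands for 0 counts. In most genes the red and black symbols separate, while *Vil1* and *Lamb3* rise within each line and overlap between lines.

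Further rises were seen in signaling genes, most of them named after their values were seen. *Il1rn*, the interleukin-1 receptor antagonist, was at 93.8 and 47.2 CPM in Smad4-off cells and 317 and 200.2 CPM in Smad4-on cells (log2 fold change 1.93 ± 0.31, adjusted p 0.0388), and *Il1r1*, the receptor itself, fell from 35.6 to 13.1 CPM for B73 and from 33.8 to 19.7 CPM for B87 (log2 fold change -1.11 ± 0.18, adjusted p 0.0392). *Ptgs1*, cyclooxygenase-1, was at 121 and 46.7 CPM in Smad4-off cells and 372 and 191 CPM in Smad4-on cells (log2 fold change 1.83 ± 0.18, adjusted p 0.00699), and the prostaglandin transporter *Slco2a1* rose from 5.89 to 41.9 CPM for B73 and from 52 to 129.6 CPM for B87 (log2 fold change 2.05 ± 0.35, adjusted p 0.0467). The prostaglandin E receptor *Ptger3* went from 16 to 179 counts in B73 cells and from 0 to 1 in B87 cells, a rise that B73 alone could show. *Areg*, a ligand of the epidermal growth factor receptor, was at 39.5 and 30.4 CPM in Smad4-off cells and 141 and 60.9 CPM in Smad4-on cells (log2 fold change 1.44 ± 0.21, adjusted p 0.0274). *Dll1*, a Notch ligand, was at 2.65 and 2.86 CPM in Smad4-off cells and 7.73 and 7.61 CPM in Smad4-on cells (log2 fold change 1.48 ± 0.18, adjusted p 0.0145); an antisense gene overlaps 20.6% of its exon bases, and whether counting used the strand is not given in the sources used here. *Pik3r5*, a regulatory subunit of phosphoinositide 3-kinase γ, was at 18 and 12.7 CPM in Smad4-off cells and 59.8 and 43.4 CPM in Smad4-on cells (log2 fold change 1.75 ± 0.12, adjusted p 0.00316). Of the transcription factor genes, *Foxf2* was at 22.5 and 34.5 CPM in Smad4-off cells and 75.5 and 78.1 CPM in Smad4-on cells (log2 fold change 1.47 ± 0.24, adjusted p 0.0389) and *Tcf23*, a basic helix-loop-helix gene, at 2.99 and 1.1 CPM in Smad4-off cells and 25.3 and 10.5 CPM in Smad4-on cells (log2 fold change 3.15 ± 0.23, adjusted p 0.00466). *Selp*, the adhesion molecule P-selectin, was at 0.449 and 1.14 CPM in Smad4-off cells and 3.78 and 8.94 CPM in Smad4-on cells (log2 fold change 2.98 ± 0.30, adjusted p 0.00729). Antisense genes overlap 14.1% of the exon bases of *Selp*, with the same limit as for *Dll1*. Also among the 15 largest rises of well-measured genes were *Unc5c* (2.44, adjusted p 0.0467), a netrin receptor, and *Dynap* (2.42, 0.00569). The change of *Smoc1* was seen in B87 alone, from 0 to 0 counts in B73 cells and from 3 to 60 in B87 cells.

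The deepest fall was in *Serpinb9g* (chromosome 13, 33484790 to 33496004), a clade B serpin of a cluster on chromosome 13. It went from 3471 to 7 counts in B73 cells and from 122 to 0 in B87 cells, which is 458-fold lower in B73 and at least 42.9-fold lower in B87 (adjusted p 0.00103), and 44.9% of its 75-base stretches occur in other genes, so reads could be shared with its copies. It was the 1 called gene among 14 tested clade B serpins, whose median was -0.70. Other deep falls were in receptor and enzyme genes. The olfactory receptor gene *Olfr65* on chromosome 7 went from 173 to 1 counts in B73 cells and from 108 to 1 in B87 cells. *Olfr632*, which lies 25697 bases away, went from 69 to 0 counts in B73 cells and from 25 to 0 in B87 cells. *Pde3a*, a cyclic nucleotide phosphodiesterase, went from 284 to 1 counts in B73 cells and from 6 to 0 in B87 cells, so that B87 had few counts to show a fall. *Adgrg1*, an adhesion G protein-coupled receptor, was at 283 and 249 CPM in Smad4-off cells and 29.3 and 22.9 CPM in Smad4-on cells (log2 fold change -3.36 ± 0.16, adjusted p 0.00103), nearly the same levels in both lines. *Oprd1*, the δ-opioid receptor, was at 29 and 17.9 CPM in Smad4-off cells and 2.54 and 1.29 CPM in Smad4-on cells (log2 fold change -3.63 ± 0.28, adjusted p 0.00342). *Vstm2b*, an immunoglobulin-domain gene, was at 92.4 and 102 CPM in Smad4-off cells and 3.84 and 8.98 CPM in Smad4-on cells (log2 fold change -3.98 ± 0.39, adjusted p 0.00699). *Mpped2*, a metallophosphoesterase, was at 11.1 and 47.1 CPM in Smad4-off cells and 0.756 and 5.57 CPM in Smad4-on cells (log2 fold change -3.30 ± 0.28, adjusted p 0.00424). *Megf10*, an engulfment receptor, was at 185 and 58 CPM in Smad4-off cells and 29.3 and 5.57 CPM in Smad4-on cells (log2 fold change -2.92 ± 0.26, adjusted p 0.005). For each of these 5 genes, both Smad4-on libraries stood below both Smad4-off libraries. *Stra6*, the receptor for retinol-binding protein, went from 161 to 4 counts in B73 cells and from 103 to 7 in B87 cells (log2 fold change -4.51 ± 0.47, adjusted p 0.00801).

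Several transcription factor genes fell. *Gli2* (chromosome 1, 118834132 to 119053619), an effector of hedgehog signaling, went from 609 to 0 counts in B73 cells and from 1454 to 88 in B87 cells and was at least 188-fold lower in B73 and 17.4-fold lower in B87 (adjusted p 0.0172). It was the 1 called gene of 8 tested in the hedgehog pathway, a list with a median of -0.10. *Pax9*, a paired-box factor of the foregut, was at 128 and 102 CPM in Smad4-off cells and 17.9 and 23.2 CPM in Smad4-on cells (log2 fold change -2.47 ± 0.18, adjusted p 0.00341). *Ikzf1*, the lymphoid zinc-finger factor Ikaros, fell from 19.3 to 2.92 CPM for B73 and from 6.19 to 0.416 CPM for B87 (log2 fold change -3.04 ± 0.50, adjusted p 0.0407), and *Itgb2*, the β2 integrin of leukocytes, fell from 19.2 to 3.73 CPM for B73 and from 8.43 to 1.04 CPM for B87 (log2 fold change -2.64 ± 0.22, adjusted p 0.00358). Immune markers summed to 6.39 and 2.15 CPM in Smad4-off cells and 3.51 and 2.37 CPM in Smad4-on cells, nearly all of it *Cd68*, while *Adgre1*, *Cd3e* and *Tyrobp* had 0 counts in all 8 libraries and *Ptprc*, the pan-leukocyte marker, had 4. *Dach1* went from 13 to 0 counts in B73 cells and from 25 to 0 in B87 cells, at least 4-fold lower in B73 and at least 8.8-fold lower in B87 (adjusted p 0.0274). DESeq2 with the line did not call *Dach1*. *Cxxc4*, an inhibitor of Wnt signaling, was at 29.2 and 20.9 CPM in Smad4-off cells and 2.43 and 1.79 CPM in Smad4-on cells (log2 fold change -3.56 ± 0.21, adjusted p 0.00238).

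Wnt ligand genes fell in part. On a list of 9 tested Wnt ligands that was put together after the values had been seen, 3 were called lower and 0 higher, with a median of -0.54. *Wnt4* was at 21.2 and 10.5 CPM in Smad4-off cells and 4.38 and 3.45 CPM in Smad4-on cells (log2 fold change -1.93 ± 0.26, adjusted p 0.019). *Wnt7b* fell from 31 to 7.08 CPM for B73 and from 8.17 to 0.25 CPM for B87 (log2 fold change -2.67 ± 0.47, adjusted p 0.0482). *Wnt10a* fell from 1.3 to 0.054 CPM for B73 and from 8.74 to 0.957 CPM for B87, with 1 count left in Smad4-on B73 cells (log2 fold change -3.34 ± 0.38, adjusted p 0.0127). *Wnt7a* went the other way, from 24.9 to 52.8 CPM for B73 and from 25.9 to 46.7 CPM for B87, and passed the p-value but not the 2-fold limit (log2 fold change 0.97 ± 0.0888, adjusted p 0.00523). Of 7 tested Wnt target genes 0 were called, and *Axin2* (1.06, adjusted p 0.103) and *Rnf43* (0.99, 0.195), which Wnt signaling induces, had positive changes that did not pass.

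The genes for the α3 and α4 chains of type IV collagen fell together. *Col4a3* (chromosome 1, 82586921 to 82722059) and *Col4a4* (chromosome 1, 82448423 to 82586849) stand head to head on chromosome 1 and are transcribed away from each other. *Col4a3* was at 3.04 and 15.9 CPM in Smad4-off cells and 0.27 and 0.707 CPM in Smad4-on cells (log2 fold change -4.17 ± 0.28, adjusted p 0.00316). *Col4a4* was at 3.04 and 14 CPM in Smad4-off cells and 0.27 and 0.957 CPM in Smad4-on cells (log2 fold change -3.68 ± 0.35, adjusted p 0.00569; 0.0585 without the Smad4-on B87 library). The stretch between their starts, chr1:82586850-82586920 (GRCm38.p6, plus strand, 71 bases), is shown because the starts of both falling genes flank it, and it held none of the 3 strings searched.
*Col4a4* to *Col4a3*: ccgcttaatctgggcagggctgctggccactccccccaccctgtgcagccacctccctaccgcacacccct
The other 4 collagen IV genes were not called, and on a list of 14 tested basement membrane collagens and laminins, chosen after the values had been seen, 2 were called higher and 2 lower (median -0.24).

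Neighboring genes often fell together. Of the 65 genes called lower, 14 (21.5%) had another gene called lower within 100 kb, while 0.934% of the other tested genes had one. Among the 91 called higher the share was 4.4%, against 1.74%. The 7 pairs of falling neighbors were *Col4a4* and *Col4a3*, *Olfr65* and *Olfr632*, *Tmem176b* and *Tmem176a*, *Pax9* and *Slc25a21*, *A230077H06Rik* and *Vstm2b*, *Gm30648* and *Cxxc4*, and *Gm37711* and *Oprd1*. DESeq2 with the line did not call *Slc25a21*. In 3 of these pairs (*Pax9*, *Tmem176a* and *Vstm2b* with their neighbors) the gene bodies overlap on opposite strands, and 2.13% to 8.08% of the exon bases are shared, where reads of the members cannot be told apart if counting ignored the strand. *Tmem176a* was at 116 and 111 CPM in Smad4-off cells and 47.1 and 51.7 CPM in Smad4-on cells (log2 fold change -1.20 ± 0.10, adjusted p 0.00422). *Tmem176b*, which encodes a related membrane protein, was at 206 and 222 CPM in Smad4-off cells and 75.1 and 108 CPM in Smad4-on cells (log2 fold change -1.25 ± 0.11, adjusted p 0.005). These were the 2 called genes of 17 tested tetraspanin and *Tmem176* genes.

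Some genes of NF-κB signaling and inflammation fell. On a list of 17 tested genes, put together after the values had been seen, 4 were called lower and 0 higher, the median was -0.50, and 14 had a negative sign in both lines. *Tnip3*, an inhibitor of NF-κB activation that NF-κB itself induces, was at 11.2 and 7.95 CPM in Smad4-off cells and 0.973 and 1.16 CPM in Smad4-on cells (log2 fold change -3.13 ± 0.28, adjusted p 0.00491). *Nfkbie*, which encodes IκBε, was at 15.2 and 20.1 CPM in Smad4-off cells and 3.94 and 8.69 CPM in Smad4-on cells (log2 fold change -1.54 ± 0.20, adjusted p 0.0185). The neutrophil chemokine gene *Cxcl5* went from 259 to 23 counts in B73 cells and from 33 to 8 in B87 cells (adjusted p 0.0274). The chemokine gene *Ccl20* went from 50 to 1 counts in B73 cells and from 57 to 11 in B87 cells (adjusted p 0.0432). These were 2 called of 13 tested chemokine ligands (median -0.29), and *Ccl2* (-3.39, adjusted p 0.0682) and *Cxcl1* (-1.70, 0.331) did not pass. *Casp4*, the caspase that senses intracellular lipopolysaccharide, was at 12.7 and 8.39 CPM in Smad4-off cells and 0.865 and 1.75 CPM in Smad4-on cells (log2 fold change -3.01 ± 0.42, adjusted p 0.0216). None of 15 tested interferon response genes was called (median 0.00).

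More abundant genes, chosen after their values were seen except for *Angptl4*, also fell. *Angptl4*, an inhibitor of lipoprotein lipase, was at 95.9 and 101 CPM in Smad4-off cells and 23.5 and 6.32 CPM in Smad4-on cells (log2 fold change -2.87 ± 0.50, adjusted p 0.0474). *Plau*, urokinase, was at 69.6 and 33.9 CPM in Smad4-off cells and 22.1 and 15.1 CPM in Smad4-on cells (log2 fold change -1.44 ± 0.23, adjusted p 0.0359). *Hspb1*, a small heat shock protein, was at 134 and 119 CPM in Smad4-off cells and 37.2 and 43.6 CPM in Smad4-on cells (log2 fold change -1.66 ± 0.22, adjusted p 0.0185), and 46.4% of its 75-base stretches occur in other genes. *Impdh1*, an enzyme of guanine nucleotide synthesis, was at 194 and 194 CPM in Smad4-off cells and 85 and 87 CPM in Smad4-on cells (log2 fold change -1.18 ± 0.0806, adjusted p 0.00316). *Twf2*, an actin-binding twinfilin, was at 69.5 and 73.3 CPM in Smad4-off cells and 28.3 and 31.5 CPM in Smad4-on cells (log2 fold change -1.26 ± 0.0917, adjusted p 0.00341). *Pygb*, a glycogen phosphorylase, was at 303 and 319.8 CPM in Smad4-off cells and 114 and 133 CPM in Smad4-on cells (log2 fold change -1.34 ± 0.12, adjusted p 0.00466). In all 6 the groups did not overlap.

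Proliferation genes and several other programs showed no called change. Of 42 S-phase and 52 G2/M genes, 0 were called, with medians of -0.06 and 0.00, and unadjusted p-values under 0.05 were found for 2 and 0. None of 4 tested cell-cycle inhibitors was called, nor any of 21 cholesterol genes (median -0.21, where *Insig1* was at -0.62 with adjusted p 0.0777), 20 ATF4 targets (median -0.16) or 19 glycolysis and hypoxia genes (median -0.02). Of 6 KLF and RUNX genes, *Klf5* (0.39, adjusted p 0.184) and *Klf6* (0.32, 0.202) had the smallest p-values. None of 13 tested pancreatic and foregut factors was called (median 0.14), nor any of 11 keratin genes (median 0.24). Mitochondrially encoded mRNAs had a median of -0.30 over 7 tested genes with a negative sign in both lines for 6, led by *mt-Nd2* (-0.65, adjusted p 0.106) and *mt-Cytb* (-0.46, 0.116), and 0 were called; the other 6 mitochondrial mRNAs were listed at 0 in all 8 libraries. With edgeR, 1809 genes in all (12.6% of those tested) had an unadjusted p under 0.05.

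The same genes were then read in the TGFβ1 libraries, which have the same lines and Dox states. Whether both treatments were plated from the same Dox-on and Dox-off cells is not given in the sources used here. Calls shared by the treatments are therefore not an independent check. Under TGFβ1, 188 genes (1.31%) were called higher and 258 (1.8%) lower with *Smad4* on. Of the 91 genes raised under SB505124, 36 were called higher under TGFβ1, 2 were called lower and 53 were not called. The median change of the 91 under TGFβ1 was 1.22, and 75 of them had a positive fitted change there. Some of the 53 had too few counts under TGFβ1 for a call. *Tcf23* went from 0 to 1 counts in each line and *Gjb1* had 0 counts in every TGFβ1 library. Others, such as *Ptgs1* with 807 to 2998 counts, were well measured. No call is therefore not the same as no effect. Of the 65 lowered genes, 49 were called lower under TGFβ1, 0 higher and 16 not, with a median of -2.36. Over all tested genes the median under TGFβ1 was -0.01. The shared genes made up 19.1% of those called higher and 19.0% of those called lower under TGFβ1. *Serpinb9g* (-8.20), *Gli2* (-7.55), *Pax9* (-2.78), *Col4a3* (-4.10) and *Acta2* (2.51) had changes of the same sign and were called in both. The BMP targets *Id1* (0.50 under TGFβ1, adjusted p 0.162), *Id3* (0.50, 0.0422, under 2-fold), *Smad6* (-0.26, 0.333) and *Smad9* (1.88, 0.191) were not called there, and their differences between the treatments did not pass (adjusted p 0.319, 0.122, 0.0743 and 0.687). *Smad9* had few counts under TGFβ1, going from 7 to 9 in B73 cells and from 2 to 19 in B87 cells. *Smad7*, of the same list, was called higher under TGFβ1 (1.14, 0.00317).

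**Figure D5:**
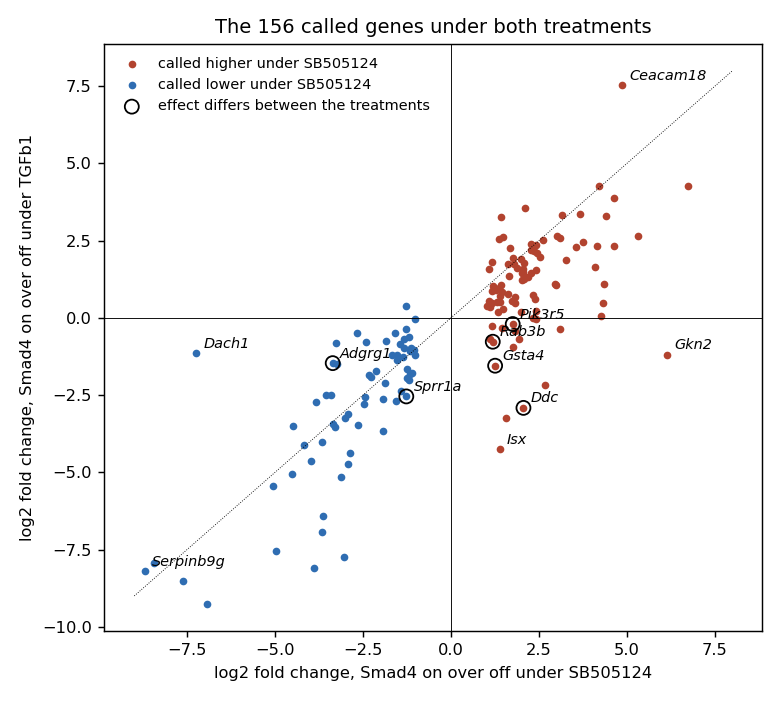
Log2 fold change of Smad4-on over Smad4-off cells under TGFβ1 (y axis) against that under SB505124 (x axis) for the 156 called genes, red for rises and blue for falls under SB505124, with rings where the difference between the treatments was itself called. Most falls lie below 0 on both axes. Of the 91 rises, 75 lie above 0 under TGFβ1 as well, while *Gsta4*, *Ddc* and *Isx* lie below it. *Isx* went from 5 to 0 counts in B73 cells and from 0 to 0 in B87 cells under TGFβ1, so its place there is uncertain.

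The difference between the treatments was called for 27 of 14301 genes (0.189%), and 6 of these were among the 156. Since the 156 were chosen on the SB505124 contrast, which enters this difference, the share is a description. *Pik3r5*, which rose under SB505124, had a change of -0.20 under TGFβ1 (adjusted p 0.392, difference 1.95 ± 0.18, adjusted p 0.0206). *Gsta4* rose under SB505124 and fell under TGFβ1, where it was at 15.3 and 6.63 CPM in Smad4-off cells and 4.75 and 2.6 CPM in Smad4-on cells (difference 2.80 ± 0.17, adjusted p 0.00529). *Rab3b*, a vesicle GTPase, rose from 7.99 to 19.2 CPM for B73 and from 9.93 to 21.4 CPM for B87 under SB505124 and had a change of -0.77 under TGFβ1 (adjusted p 0.0559, difference 1.96 ± 0.25, 0.0496). *Ddc*, aromatic amino acid decarboxylase, went from 115 to 432 counts in B73 cells and from 0 to 2 in B87 cells under SB505124, and the difference (4.97 ± 0.56, 0.0387) rests on B73. *Sprr1a*, a cornified envelope protein, fell from 50.1 to 21.7 CPM for B73 and from 56.4 to 22.4 CPM for B87 and had a change of -2.54 under TGFβ1 (adjusted p 0.000779, difference 1.27 ± 0.16, 0.0471). *Adgrg1* fell more under SB505124 than under TGFβ1, where it was at 526 and 479 CPM in Smad4-off cells and 232 and 141 CPM in Smad4-on cells (difference -1.90 ± 0.21, 0.038). With no replicate block, 0 genes were called for this difference and 640 had an unadjusted p under 0.05, and DESeq2 without the line called 40. With 1 of the 8 libraries left out, 0 to 14 genes were called, and it was 0 (1035 at an unadjusted p under 0.05) without the Smad4-off TGFβ1 library of B73.

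The effect of *Smad4*, averaged over the treatments, differed between the lines for 56 genes (0.392%), of which 2 were among the 156. They were *Muc5ac*, which rose more in B73, and *Angptl4*, which fell more in B87. In 4 called genes, *Smoc1*, *Ptger3*, *Ddc* and *Lama4*, a line had at most 3 counts in both libraries. Only the other line could show their change, and DESeq2 with the line did not call *Smoc1*, *Ptger3* and *Ddc*. In 26 more called genes, at least 1 line had 0 to 3 counts in its lower library. The fitted size of their change depends on the prior count there.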

How the data were processed

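Poly(A) RNA from 8 cultures was sequenced as 75-base single reads. Per the labels and the study, the authors checked and trimmed reads with FastQC (0.11.5) and Trimmomatic (0.36), aligned them with STAR (2.5.3a) to GRCm38 and counted them per gene with featureCounts (1.6.3). The deposited values are raw counts per gene for each library, and strand and multi-mapping settings are not given in the sources used here. Groups came from the sample titles, and replicates were paired by cell line, since each line went through every condition (r of same-line deviations 0.642 to 0.774 across genes).

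Counts were fitted with edgeR (4.0.16, R 4.3.3, limma 3.58.1) by quasi-likelihood over all 8 libraries in 4 groups with the line as a block, after filterByExpr and TMM scaling. A gene was called at a Benjamini-Hochberg adjusted p under 0.05 and more than 2-fold. CPM values use TMM-scaled library sizes. The residual degrees of freedom were 3. Errors are standard errors of the log2 fold change. Where the lower library held 0 counts, the fold was taken against 3 counts per library, and with 1 to 3 counts an exact 95% interval was given; intervals and floors cover counting error only. Genes were named if they were among the 15 largest rises or falls with a mean log2 CPM of at least 1 and 1 sign in both lines (symbols that begin with Gm or end in Rik left out), called members of a gene list, members with small p-values in lists without calls, markers, or called for the difference between treatments. This rule covers 49 of the called genes and leaves out 107, some of which were named after their values were seen. The comparison, lists and tests were chosen with earlier results of these data known. Some genes and an allele are counted or shared by the groups but are not reported here by themselves. Sequences came from RefSeq (GRCm38.p6), where promoter entries were matched by symbol for 10260 tested genes, and shared sequence was measured in 75-base stretches. The pipeline was tested on simulated data. Alternatives were DESeq2 (1.42.0), other scaling, filters, sample sets and fold rules, and leaving out each library.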

Additional observations from a re-analysis of the deposited data

Results flagged for a closer look

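For 6 genes called under SB505124, the change with *Smad4* on differed from that under TGFβ1 by the test of the difference itself, given here as SB505124 minus TGFβ1 on the log2 scale. *Ddc* differed by 4.97, *Gsta4* by 2.80, *Rab3b* by 1.96, *Pik3r5* by 1.95, *Sprr1a* by 1.27 and *Adgrg1* by -1.90. For *Sprr1a* and *Adgrg1* the change was negative under both treatments, so the sign of the difference says under which of them it was smaller.

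For 2 genes the change with *Smad4* on, averaged over the treatments, differed between the lines. *Muc5ac* differed by -3.59 and *Angptl4* by -1.71 on the log2 scale, B87 minus B73. Each line had 1 library per condition, so this difference could not be tested under SB505124 alone.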

How the results depend on the processing

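The rise of *Smad4* kept its direction and its call under every alternative (log2 fold change 1.53 to 1.71 over the fits that left out a library), and the 156 called genes kept their direction under every alternative that tested them. The alternatives reuse the libraries on which the 156 were called, so the kept direction is a description. The counts depended on the pairing by line. With no replicate block, edgeR called 1 gene higher, 1 lower (466 and 320 at an unadjusted p under 0.05) and 0 for the difference between treatments, and DESeq2 without the line called 44 higher. DESeq2 with the line called 136 genes for the difference between treatments and 105 for that between lines. It also called 122 higher and 88 lower, among them 144 of the 156. With no filter on low counts, 250 genes were called higher, 153 lower, 284 for the difference between treatments and 399 for that between lines. With at least 10 counts in every library, these were 44, 33, 27 and 30. In the 4 SB505124 libraries alone, 44 were called higher and 29 lower. Without the fold rule 139 were called higher, and in a test against the 2-fold threshold 18 were called higher and 19 lower. With a library left out, 21 to 95 genes were called higher, 25 to 66 lower, 0 to 14 for the difference between treatments and 56 to 156 for that between lines. The fewest rises and falls came without the Smad4-on B73 library under SB505124 (21 and 25) and the Smad4-off one (24 and 28), and without the Smad4-off B87 library there were 48 and 43. The lines' difference rose to 124 without either Smad4-on TGFβ1 library. The cause of these shifts was not tested beyond the smaller number of libraries or genes. At these depths, 3 counts per library limit what can be measured to 0.125 to 0.162 CPM.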

Other observations

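Further called genes belong to none of the groups described in the report and were chosen after their values were seen. Those named in this paragraph were called higher. *Anxa8*, an annexin, was at 277 and 387 CPM in Smad4-off cells and 710.0 and 637 CPM in Smad4-on cells (log2 fold change 1.02 ± 0.17, adjusted p 0.0445). *S100a16*, an EF-hand protein, was at 62.1 and 40 CPM in Smad4-off cells and 171 and 72 CPM in Smad4-on cells (log2 fold change 1.17 ± 0.15, adjusted p 0.0161). *Cd55*, the decay-accelerating factor that shields cells from complement, was at 18 and 7.38 CPM in Smad4-off cells and 45.5 and 19.3 CPM in Smad4-on cells (log2 fold change 1.35 ± 0.23, adjusted p 0.0445), and in these 3 genes the Smad4 states did not overlap. *Sdc3*, a heparan sulfate proteoglycan of the syndecan family, was at 13.3 and 27.9 CPM in Smad4-off cells and 42.1 and 117 CPM in Smad4-on cells (log2 fold change 1.89 ± 0.22, adjusted p 0.0127). *Atp2a3*, a calcium pump of the endoplasmic reticulum, was at 2.3 and 2.06 CPM in Smad4-off cells and 10.8 and 5.49 CPM in Smad4-on cells (log2 fold change 1.81 ± 0.30, adjusted p 0.0398). *Plin4*, a lipid droplet coat protein, was at 11.1 and 1.8 CPM in Smad4-off cells and 30.8 and 12 CPM in Smad4-on cells (log2 fold change 1.98 ± 0.32, adjusted p 0.0388). *Suox*, sulfite oxidase, was at 129.9 and 87 CPM in Smad4-off cells and 367 and 195 CPM in Smad4-on cells (log2 fold change 1.33 ± 0.11, adjusted p 0.00342) and kept its call with any library left out. *Prl2c2* rose from 14.9 to 72 CPM for B73 and from 4.44 to 14.7 CPM for B87 (log2 fold change 2.03 ± 0.16, adjusted p 0.00342) and *Prl2c3* rose from 39.7 to 139 CPM for B73 and from 0.791 to 2.83 CPM for B87 (log2 fold change 1.78 ± 0.14, adjusted p 0.00341), prolactin-family genes that share 71.8% and 51.7% of their 75-base stretches with other genes, so that their reads may be mixed.

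The next genes, chosen in the same way, were called lower. *Slco4a1*, an organic anion transporter, was at 66.7 and 52.8 CPM in Smad4-off cells and 33.2 and 16 CPM in Smad4-on cells (log2 fold change -1.33 ± 0.20, adjusted p 0.0276). *Slc29a3*, a lysosomal nucleoside transporter, was at 71.8 and 52.4 CPM in Smad4-off cells and 19.9 and 22.5 CPM in Smad4-on cells (log2 fold change -1.54 ± 0.16, adjusted p 0.00906). *Ak4*, an adenylate kinase of mitochondria, was at 25.5 and 37.6 CPM in Smad4-off cells and 8 and 19.6 CPM in Smad4-on cells (log2 fold change -1.28 ± 0.18, adjusted p 0.0237). In these 3 genes both Smad4-on libraries lay below both Smad4-off libraries. *Kalrn*, a guanine nucleotide exchange factor, was at 73.8 and 67.9 CPM in Smad4-off cells and 22.7 and 16.9 CPM in Smad4-on cells (log2 fold change -1.84 ± 0.23, adjusted p 0.0161). *Etl4* was at 238 and 298 CPM in Smad4-off cells and 113 and 125 CPM in Smad4-on cells (log2 fold change -1.17 ± 0.10, adjusted p 0.00474) and kept its call with any library left out. *Col5a2*, a chain of type V collagen, fell from 200.1 to 35.1 CPM for B73 and from 0.615 to 0.374 CPM for B87 (log2 fold change -2.33 ± 0.36, adjusted p 0.0323), with far higher levels in B73, and DESeq2 with the line did not call it.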
